A study of Mus musculus with 3 samples.

Results

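The Mef2, Srf, myocardin and Tead factors are transcription regulators of muscle and heart genes, and the peaks that the LIM-homeodomain factor Isl1 had at their genes are described here. The set was 10 genes, namely Mef2a, Mef2b, Mef2c, Mef2d, Srf, Myocd, Tead1, Tead2, Tead3 and Tead4. Repeated lines of the deposited list of Isl1 peaks were dropped and every peak assigned to these gene symbols was kept, which left 10 of 14082 peaks. Of the 10 genes, 8 had a peak, and Mef2b and Myocd had none.

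Isl1 chromatin immunoprecipitation followed by sequencing (ChIP-Seq) was done on cardiac progenitor cells (CPCs) at day 5 of differentiation. The paper describes differentiation in hanging drops and by a directed protocol, and does not state which was used for ChIP-Seq. The cells came from the mouse embryonic stem cell line E14 Tg(Nkx2-5-EmGFP), in which EmGFP reports the early cardiac gene Nkx2-5, so all samples share this 1 line. There were 3 samples, of which 2 were pulldowns with an Isl1 antibody of the Developmental Studies Hybridoma Bank and 1 was input chromatin taken without antibody. The deposited list combines both pulldowns and gives a start, an end, a signed distance to the closest transcription start site (TSS), a RefSeq accession and a symbol for each peak, with coordinates on mm9. It holds no score, read number or value per replicate. The depth is therefore unknown, no spread between replicates can be given and no comparison was tested. A gene without a line in the list cannot be called unbound, and no level of any marker gene was there against which the cell type could be checked.

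Mef2 proteins and Srf are MADS-box factors, which bind A/T-rich elements known as the MEF2 site and the CArG box. Mef2c is needed for the formation of the right ventricle and outflow tract and is a classical gene of the second heart field, and Mef2 activity is held back by class IIa histone deacetylases. Srf works with partners that decide which of its targets are used. Myocardin, the product of Myocd, drives smooth and cardiac muscle genes, and the myocardin-related factors respond to actin dynamics. Tead factors bind the M-CAT element of muscle promoters and are the DNA-binding partners of Yap and Taz, the effectors of the Hippo pathway.

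The stretches of sequence that the results turn on were read from the genome of the same build. The first set holds up to 150 bases just upstream of the 5′-most annotated start, on the strand of the gene, for Srf at chr17:46693112-46693261 on the minus strand and Tead3 at chr17:28487751-28487900 on the minus strand. Capitals mark GGGCGG (the GC box), CCGGAA (an ETS core), CCAAT and the CArG box, on either strand.
Srf: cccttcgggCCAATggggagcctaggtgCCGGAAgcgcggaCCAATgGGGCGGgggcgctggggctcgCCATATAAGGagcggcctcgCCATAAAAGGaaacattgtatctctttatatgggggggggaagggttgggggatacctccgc
Tead3: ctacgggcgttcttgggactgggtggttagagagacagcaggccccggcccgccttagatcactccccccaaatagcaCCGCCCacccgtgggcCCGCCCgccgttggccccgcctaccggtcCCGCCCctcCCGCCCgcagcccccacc
The Srf stretch was chosen for its CArG boxes and the Tead3 stretch for its GC boxes. Both lay inside the Isl1 peak of the gene.

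The second set holds short sites inside the promoter peaks, on the strand of the gene, with the searched string in capitals. They are the MEF2 site of Mef2a at chr7:74517737-74517746 and 1 M-CAT string, CATTCC, each of Tead1 at chr7:119822857-119822862, Tead3 at chr17:28487654-28487659 and Tead4 at chr6:128250475-128250480.
Mef2a: ggcctgactcCTAAAAATAGccccggtgtg
Tead1: gcgttcatttCATTCCtgtcctcatt
Tead3: tcattccgtaCATTCCggccatcccc
Tead4: ccattccgtgCATTCCtgccgggctc
The Mef2a letters match the MEF2 site searched, and those of the Tead genes match the string CATTCC of the M-CAT element. Bases beside CATTCC were not part of the search, so a match to a longer element is not implied. Both elements are known to be bound by factors of the same families. Binding of Mef2 or Tead factors at these sites was not measured.

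The third set holds the central 200 bases of the 3 peaks far from a start, on the strand of the gene to which they were assigned. These are the Mef2c peak at chr13:83325905-83326104 and the upstream Tead1 peak at chr7:119749507-119749706, both on the plus strand, and the intronic Tead4 peak at chr6:128222985-128223184 on the minus strand. Capitals mark, for Mef2c and Tead1, the run of 31 bases that occurs most often in the genome and, for Tead4, the longest run in which purines and pyrimidines alternate.
Mef2c: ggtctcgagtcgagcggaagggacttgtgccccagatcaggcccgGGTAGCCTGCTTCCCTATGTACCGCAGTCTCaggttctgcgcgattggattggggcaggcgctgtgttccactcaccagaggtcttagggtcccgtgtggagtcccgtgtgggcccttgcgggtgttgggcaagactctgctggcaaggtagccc
Tead1: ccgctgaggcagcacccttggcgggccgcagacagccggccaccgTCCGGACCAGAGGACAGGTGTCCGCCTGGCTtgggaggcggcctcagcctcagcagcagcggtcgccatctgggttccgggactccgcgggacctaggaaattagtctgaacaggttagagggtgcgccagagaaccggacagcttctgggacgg
Tead4: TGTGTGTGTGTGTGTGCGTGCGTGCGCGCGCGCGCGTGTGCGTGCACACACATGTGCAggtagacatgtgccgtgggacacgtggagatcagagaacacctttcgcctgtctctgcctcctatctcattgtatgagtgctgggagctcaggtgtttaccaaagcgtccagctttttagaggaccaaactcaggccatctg
The capital run of Mef2c occurred 5638 times in the genome and that of Tead1 2022 times, on both strands counted together. The capital run of Tead4 was 58 bases long.

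In all, 8 of the 10 genes had an assigned peak, beside 39.1% of the 21031 protein-coding genes with a curated RefSeq transcript. A peak within 1 kb of the TSS was found at 7 of the 10 genes, beside 24.2% of protein-coding genes. A peak at single-copy sequence, defined below, was present at the same 7 genes, beside 28.7%. At least 2 peaks were assigned to 2 genes, Tead1 and Tead4, beside 11.1% of protein-coding genes. The families differed in their counts. All 4 Tead genes had a peak at the start, of 4 Mef2 genes 3 had a peak and 2 had it at the start, and Srf had 1 peak at the start whereas its coactivator Myocd had none.

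The Mef2 genes gave 3 different pictures. Mef2a, a widely expressed member of the family, had a peak of 1681 bp at chr7:74516905-74518586 whose midpoint lay 1 bp upstream of the TSS by the deposited distance. It reached 842 bp upstream and 838 bp downstream of the start, so it covered the start about evenly on both sides. Mef2d had a peak of 1157 bp at chr3:87945951-87947108, with its midpoint 235 bp downstream of the TSS in a non-coding exon or UTR. The peak of Mef2c, 881 bp at chr13:83325564-83326445, lay 317029 bp upstream of the TSS between genes. Mef2b had no line of its own.

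Among the Mef2 family, the sequence under the Mef2a peak held a MEF2 site, shown above. The site began 2 bp upstream of the 5′-most annotated start and was centred 4 bp from the peak midpoint. Of all 14082 peak centres of 200 bp, 0.0639% held such a site, and 1.70% of windows as wide as the Mef2a peak held it when centred on the 5416 peaks within 1 kb of a TSS. The site spans the annotated start. No MEF2 site was found under the peaks of Mef2c and Mef2d.

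Srf, the MADS-box partner of myocardin, had a peak of 1503 bp at chr17:46691897-46693400, with its midpoint 463 bp downstream of the TSS in a coding exon. The peak reached 289 bp upstream and 1213 bp downstream of the start, and 501 bp of it were coding exon. It was thus shifted into the gene. Its upstream part also overlaps an intron of the annotated transcript Gm16736.

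Upstream of Srf, 2 CArG boxes lay inside the peak, beginning 62 and 82 bp before the start. The boxes were centred 520 and 540 bp from the peak midpoint. They can be read in the Srf stretch above as the 2 longer runs of capitals, 20 bp apart. A CArG box within 150 bp upstream of the start was found at 0.841% of 22232 protein-coding genes, and 4 of these genes had at least 2. In windows as wide as the Srf peak around the midpoints of the 5416 promoter peaks, 4.99% held a CArG box and 0.185% held at least 2. Srf was the only member of the set with a CArG box under its peak. The central 200 bp of the Srf peak held none.

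The Tead genes all had a peak at the start. Tead1, the founding member of the family, had its promoter peak of 1354 bp at chr7:119822354-119823708, 197 bp downstream of the TSS. For Tead2, which is active in the early embryo, the peak was the narrowest of the promoter peaks, 640 bp at chr7:52471063-52471703, with its midpoint 260 bp downstream. Tead3 had the widest, 1766 bp at chr17:28486677-28488443, centred 15 bp upstream of the start to which it was assigned. Tead4, known from the first lineage decision of the embryo, had a peak of 785 bp at chr6:128250129-128250914, 310 bp downstream. The Tead3 start used for the assignment was 205 bp downstream of its 5′-most annotated start. The 4 widths spanned more than the interquartile range of all promoter peaks, which is given below.

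M-CAT strings lay under 3 of the 4 Tead promoter peaks. CATTCC occurred 3 times under the Tead1 peak, 4 times under the Tead3 peak and 3 times under the Tead4 peak, and was not found under the Tead2 peak. Under the peaks of the other families it occurred at Mef2a, 1 time. In windows as wide as the Tead4 peak around all 5416 promoter peaks, 18.1% held the string and 0.258% held it at least 3 times. For Tead3, 50.2% of windows of its width held the string and 0.886% at least 4 times, and for Tead1 37.6% held it and 1.79% at least 3 times. At the 200 bp in the centre, the string was present in the Tead3 and Tead4 peaks and in 2.67% of all peaks.

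Some of the strings of Tead1, Tead3 and Tead4 lay close together downstream of the start, in a non-coding exon or UTR and in the same orientation. At Tead1 these began 25 and 37 bp after the 5′-most start, at Tead3 82 and 91 bp and at Tead4 340, 352 and 361 bp after it. The remaining strings lay apart from them. At Tead1 this was 1 string 196 bp upstream of the start, in an intron of an overlapping transcript. At Tead3 1 lay 182 bp upstream between genes and 1 lay 207 bp downstream in a coding exon, both in the opposite orientation. The closest pairs are shown here in full, with CATTCC in capitals.
Tead1: CATTCCtgtcctCATTCC
Tead3: CATTCCgtaCATTCC
Tead4: CATTCCgtgCATTCC
A pair in the same orientation whose starts are at most 12 bp apart was found in 8 of the 5416 windows as wide as the Tead4 peak (0.148%), in 15 as wide as the Tead1 peak (0.277%) and in 27 as wide as the Tead3 peak (0.499%). The limit of 12 bp was set after these positions were seen, the windows include those of the Tead genes themselves, and genes of 1 family share ancestry, so the counts only describe the sequence.

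**Figure D1:**
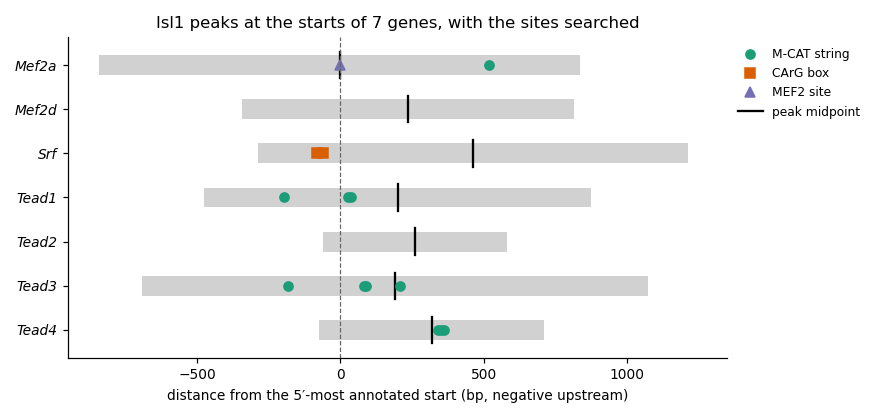
Extent of the 7 Isl1 peaks at gene starts (grey bars) in bp from the 5′-most annotated start of each gene, negative upstream, with peak midpoints (black lines), M-CAT strings (circles), CArG boxes (squares) and the MEF2 site (triangle). The Mef2a midpoint falls on the start and the Srf midpoint farthest into its gene, and close pairs of M-CAT strings lie downstream of the starts of Tead1, Tead3 and Tead4.

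The 7 promoter peaks varied in width. Their widths ran from 640 to 1766 bp with a median of 1354 bp, and 5 of 7 were wider than the median of the 5416 peaks within 1 kb of a TSS, which was 1050 bp (interquartile range 835 to 1313). Tead3 and Mef2a exceeded 93.1% and 91.0% of these peaks in width, whereas Tead4 exceeded 19.5% and Tead2 6.35%. All 7 were at single-copy sequence, as were 97.4% of promoter peaks. By the deposited distance, the midpoint was downstream of the TSS in 5 of 7, beside 80.9% of promoter peaks. Over all 7 this distance ran from 15 bp upstream, at Tead3, to 463 bp downstream with a median of 235 bp downstream. The median of all promoter peaks was 152 bp downstream (interquartile range 39 to 268). Measured from its 5′-most annotated start, the Tead3 midpoint was 190 bp downstream.

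The GC content of the central 200 bp was 69.5% to 86.0% in the 7 promoter peaks, with a median of 73.0%, beside a median of 74.0% in all promoter peaks. The Tead1 promoter peak, at 86.0%, exceeded 99.1% of promoter peaks and the Srf peak, at 82.0%, 93.0%. The peaks away from a start had 63.0% at Mef2c, 67.5% at Tead1 and 56.0% at Tead4, all below the lowest promoter peak. The ratio of CpG dinucleotides found to those expected from the C and G content was 0.760 to 1.15 in the promoter peaks. In the other peaks it was 0.563 at Mef2c, 0.707 at the upstream Tead1 peak and 0.839 at the intronic Tead4 peak, the last of which lay within the range of the promoter peaks.

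**Figure D2:**
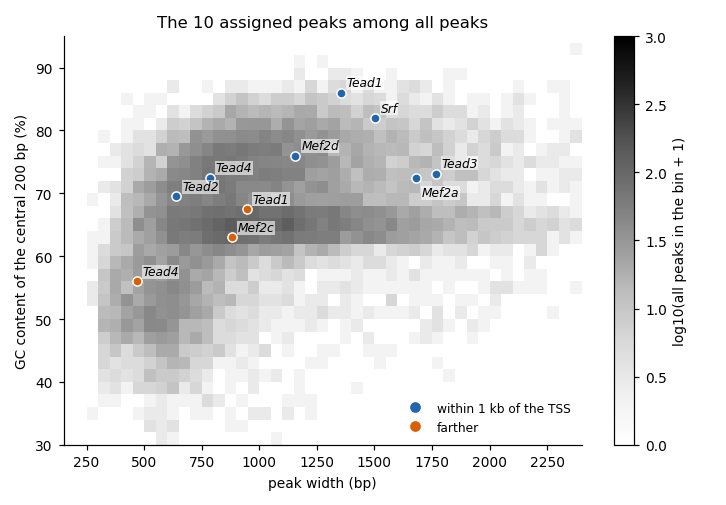
Width (bp) and GC content of the central 200 bp (%) of the 10 assigned peaks, over the density of all peaks in grey on a log10 scale. Peaks wider than the axis are not drawn, and the 7 promoter peaks (blue) all lie above the 3 others (orange) in GC content.

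Of the 10 genes, 5 had more than 1 annotated start, and 3 of these 5 had a peak at the most upstream one. Mef2c and Myocd had no peak within 1 kb of any start. Annotated starts more than 1 kb apart were counted separately, which gave 3 for Mef2a, 2 for Mef2c, 3 for Myocd, 4 for Tead1 and 2 for Tead4. Mef2a, Tead1 and Tead4 had a peak within 1 kb of the 5′-most start, and 0 of the 9 later starts of the 5 genes had one. Among the 2055 protein-coding genes with several starts and a peak at any of them, 81.0% had a peak at the 5′-most start and 73.0% had it there only. The start implied by each deposited distance matched an annotated start of the assigned gene within 1 bp for 10 of 10 peaks.

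The peak inside Tead4 was the only assigned peak within a gene body away from the start. It was 467 bp wide at chr6:128222851-128223318, lay in an intron 27747 bp downstream of the TSS and was 2511 bp from a later annotated start of Tead4. Its sequence, shown above, opens with the alternating run. Its centre was single-copy with a median of 1 occurrence per word of 31 bases, and 4.81% of the words of the whole peak occurred at least 2 times in the genome. Of the 7193 peaks more than 10 kb from a TSS, 18.8% were single-copy by the same measure. In width it exceeded 6.81% of these peaks.

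The peaks assigned to Mef2c and the upstream peak of Tead1 lay in repeated sequence. A peak was called multi-copy where the words of 31 bases in its central 200 bp occurred, in the median, at least 2 times in the genome on both strands. That median was 2193 at Mef2c and 763 at Tead1, and with words of 75 bases it was 11 and 126. The other 8 peaks had a median of 1. For comparison, 81.2% of all peaks more than 10 kb from a TSS were multi-copy. Short reads from such sequence may fit several places, so the position of both peaks is less sure than that of the other 8. How the reads there were placed was not tested.

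The Mef2c and upstream Tead1 peaks also shared words with many other peaks. At least 1 word of the Mef2c centre was found in the centres of 945 other peaks (6.71%), of which 919 were more than 10 kb from a TSS and 0 were within 1 kb. For the Tead1 peak, at chr7:119749133-119750080, it was 559 other peaks (3.97%), with 541 and 0 in the same classes. At least 50% of the words were shared by 10 peaks at Mef2c and 43 at Tead1. The Tead4 intronic centre shared a word with 3 others.

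Both multi-copy peaks sat at an edge between repeated and single-copy sequence. In the 500 bp next to the Mef2c peak the median occurrence was 2701 on the side away from the gene and 1 on the side of the gene. At Tead1 it was 1 on the side away from the gene and 3459 on the side of the gene. Of the 5837 multi-copy peaks more than 10 kb from a TSS with both flanks readable, 51.6% had repeated sequence in 1 flank only, 14.7% in both and 33.8% in neither. Single-copy peaks at promoters had it in neither flank in 99.4%.

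**Figure D3:**
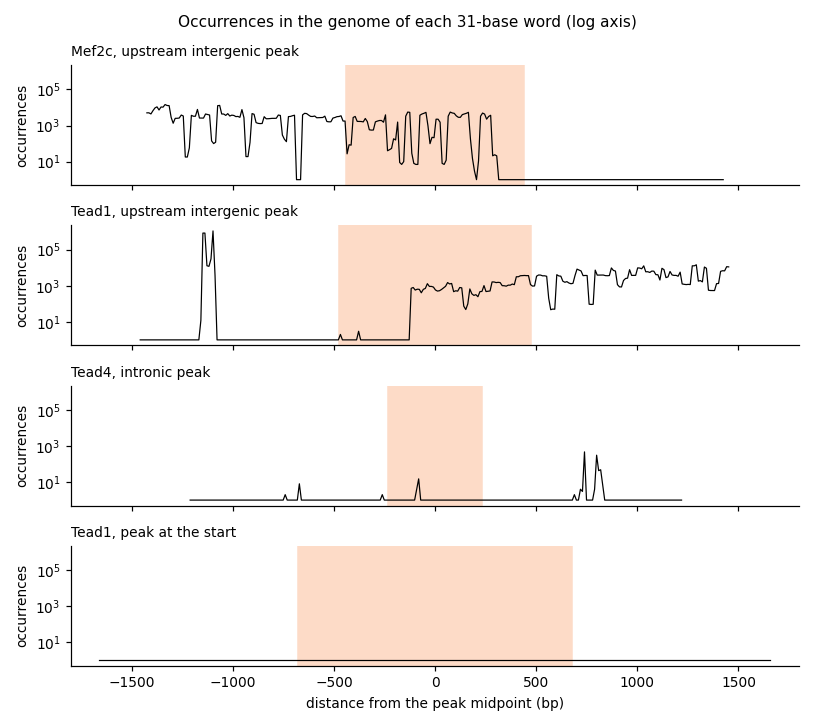
Number of occurrences in the genome, on a log axis, of the 31-base word at each position in and around 4 peaks, against the distance in bp from the peak midpoint along the strand of the gene, with the peak shaded. The line runs far above 1 through much of the Mef2c peak and the downstream part of the upstream Tead1 peak, and stays at 1 across the promoter peak of Tead1.

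The distance to the closest peak of any gene differed widely among the members. Any peak, whatever gene it was assigned to, lay within 100 kb of an annotated start of 9 of the 10 genes, beside 77.8% of protein-coding genes, and Mef2c was the exception. The closest peak to a start of Mef2c was 207 kb away, and 91.7% of protein-coding genes had a closer one. Within 500 kb of its 5′-most start there were 4 peaks. Of these, 1 was single-copy, at chr13:83870078-83871189, and was the same closest peak. It lay 228 kb downstream of the 5′-most start and 207 kb from the later start, beyond the end of the gene. It was assigned to the transcript C130071C03Rik.

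Myocd had 2 peaks within 500 kb of its 5′-most start. The closer was the promoter peak of Arhgap44, at chr11:64975660-64976609, which lies beyond the 3′ end of Myocd. It was 107 kb from the 5′-most start and 42.8 kb from the most downstream of the 3 starts, and 57.4% of protein-coding genes had a peak closer to a start. The other, multi-copy peak was assigned to Gm12295 and lay 209 kb upstream. No peak lay inside Myocd, which is 93.4 kb long. The paper counts Myocd and Mef2c among Isl1 targets, from binding in embryos or CPCs together with expression changes on Isl1 loss. The embryo peaks and the expression data were not examined here.

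Mef2b lay in a region dense with peaks, 32 within 500 kb, of which 30 were single-copy. A peak of 1318 bp at chr8:72689904-72691222 lay inside Mef2b. Its midpoint was 13.9 kb from the start of Mef2b, and its edge was 165 bp before the annotated end of the gene. The peak also overlapped 2310045N01Rik, and the midpoint was in a coding exon of either gene. It was assigned to the neighbouring Tmem161a, whose TSS is 5744 bp away, since that start is closer. The gene therefore overlaps a peak although no peak carries its name. The other members had between 3 peaks within 500 kb, at Mef2a and Tead1, and 20, at Tead2.

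**Figure D4:**
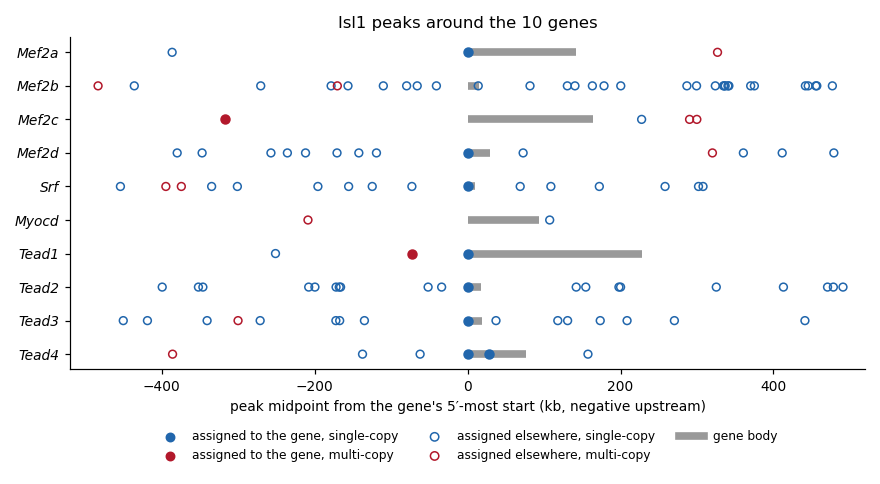
Midpoints of all Isl1 peaks within 500 kb of the 5′-most start of each gene, in kb along the strand of the gene (negative upstream), with gene bodies in grey. Filled points are peaks assigned to the gene, open points those assigned to other genes, blue single-copy and red multi-copy, and Mef2b and Myocd have no filled point and Mef2c has a red filled point only.

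Strings bound by homeodomain and Gata factors were searched in the central 200 bp and under the whole peaks. CTAATGG and CTAATTG, which hold the core that LIM-homeodomain factors prefer, were found in 0 of the 10 centres, beside 0.220% and 0.192% of all peak centres. They were also at 0 under the 7 whole promoter peaks, where 1.16% to 7.37% and 0.923% to 6.37% of windows of the same widths held them, and under the other 3 peaks. The shorter core TAAT was found in 1 of 10 centres, that of the upstream Tead1 peak, beside 19.4% of all centres and 5.87% of promoter peak centres. GATAA, the core read by Gata factors, was in 0 of 10 centres beside 3.39%. Under the whole peaks TAAT was found at 4 of 10, Mef2a, Mef2c, the upstream Tead1 peak and Tead2. GATAA was found at 2, Mef2d and Srf. Of the 7 promoter peaks, 2 thus held TAAT and 2 held GATAA. In windows of the same widths, 27.1% to 93.2% held TAAT and 11.1% to 64.4% held GATAA. The absence of these letters from a window says nothing of the factor.

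Strings common at promoters were counted in the same way. GGGCGG was present in the centres of 5 of the 7 promoter peaks, beside 65.7% of all promoter peak centres. It was found under all 7 whole promoter peaks, beside 94.2% to 97.9% of windows of the same widths. It occurred 12 times under the Tead3 peak and 11 times under the Tead1 peak, and 7.70% and 9.27% of windows of the same widths held as many. CCGGAA was in 2 of the 7 promoter centres, beside 11.0% of all promoter peak centres, and CCAAT in 0, beside 8.03%.

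The partners, regulators and targets of the 10 factors were examined as 6 lists with 98 different genes, of which 59 had an assigned peak (60.2%) and 39 had it within 1 kb of the TSS (39.8%). Over all protein-coding genes the shares were 39.1% and 24.2%, as above. The lists were written from general knowledge with earlier results of these data known, and no test was made of them.

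The Hippo and Tead cofactor list had a peak at 20 of 24 genes and within 1 kb of the TSS at 13. The closest to a start were those of Amotl2, an angiomotin-like partner of Yap, 16 bp upstream, Wwc2, a Kibra-like scaffold, 53 bp upstream, Dchs1, a cadherin upstream of the pathway, 78 bp downstream, and Ptpn14, a phosphatase that binds Yap, 81 bp downstream. The kinase genes Lats1, Lats2, Stk3 and Stk4 all had a promoter peak, at 122, 270, 256 and 196 bp downstream. The 4 genes without a peak were Yap1 and Wwtr1, which encode Yap and Taz, and Sav1 and Mob1a, adaptors of the kinases. These 8 were named after their values were seen, although Lats2 is also named by rule as a Tead target. Of the 20 genes with a peak, 6 had multi-copy peaks only and 14 had a single-copy peak. Of the 8217 protein-coding genes with a peak, 6043 had one at single-copy sequence.

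Regulators of Mef2 had a peak at 12 of 16 genes and within 1 kb of the TSS at 11. The closest were those of Hdac4, a class IIa deacetylase that represses Mef2, 26 bp upstream, Map2k5, the kinase above Erk5, 117 bp downstream, and Camk4 and Camk2d, calcium-dependent kinases, 206 and 215 bp downstream. Among cofactors of Srf and genes of actin signalling, 9 of 18 had a peak and 8 had it within 1 kb. The closest were those of Fhl2, a LIM-only cofactor of Srf, 12 bp upstream, Rock2, 23 bp upstream, Limk2, a kinase of cofilin, 80 bp downstream, and Rock1 101 bp upstream.

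Targets had peaks near their starts at lower shares than regulators. Of 19 targets of Srf and myocardin 7 had a peak and 4 had it within 1 kb, led by Tpm1, an actin-binding tropomyosin, 61 bp downstream, Myl9, a myosin light chain, 64 bp upstream, Egr1, an immediate early factor, 209 bp upstream, and Zyx, a focal adhesion protein, 282 bp downstream. Of 9 Tead targets 5 had a peak and 3 had it within 1 kb. Beside Amotl2 and Lats2, which are on the Hippo list too, the closest were Ajuba, 667 bp downstream, and Myc, 1669 bp downstream. Of 14 Mef2 targets 8 had a peak and 2 had it within 1 kb, Jun at 379 bp upstream and Klf2 at 476 bp downstream, followed by Hspb7 at 5236 bp and Myog at 9095 bp downstream. The share within 1 kb was 14.3% for Mef2 targets, 21.1% for Srf and myocardin targets and 33.3% for Tead targets, and 68.8% for Mef2 regulators, 54.2% for the Hippo list and 44.4% for Srf cofactors.

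**Figure D5:**
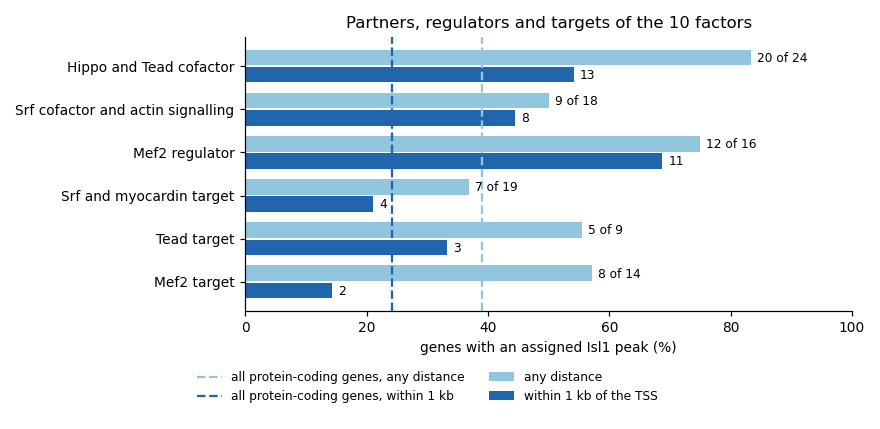
Share of genes with an assigned Isl1 peak (%), at any distance (light bars) and within 1 kb of the TSS (dark bars), in 6 lists around the 10 factors, with counts beside the bars and the shares of all protein-coding genes as dashed lines. For peaks within 1 kb, the lists of Mef2 regulators, Hippo genes, Srf cofactors and Tead targets lie above the dark dashed line and those of Srf and Mef2 targets below it.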

How the data were processed

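The study measured Isl1 occupancy by ChIP-Seq in 2 pulldowns and 1 input. Per its methods and the labels, the authors aligned reads to mm9 with Bowtie2, removed duplicates with Picard 1.136 and called peaks with MACS14. They dropped blacklisted regions, found areas common to both replicates with bedtools 2.15 (intersect -wa), and assigned each peak to the closest TSS with annotatePeaks.pl. The paper does not say whether the listed peak edges come from 1 replicate or from both. The deposited list gives positions and distances in bp without any enrichment value. Its 14165 lines held 83 repeats, 0 of them at the 10 genes. Whether starts count from 0 is not stated, and sequences were read as if they did, which could move them by 1 base.

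From the list, peaks were kept by symbol, and starts, exons and words of 31 bases were taken from GENCODE annotation and the genome of the same build with Python 3.11.15, numpy 2.4.6, pandas 2.3.3 and numba 0.67.0. The word counter was tested on simulated data. Gene names came from the RefSeq table, which matched all but 8 of 9313 symbols. All 10 genes were named, and in each related list the 4 with a peak closest to the TSS. No test was made, as 1 combined list has no replicates. Members, lists and strings were chosen with earlier results of these data known. No column of another sample was present. The stretch upstream of Tead1 is not reported here.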

Additional observations from a re-analysis of the deposited data

How the results depend on the processing

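Over 9 results and 42 alternatives, 39 values stayed within 1.5 times the reported count or within the spread of the member peaks. The remaining 3 moved. Assigning each peak to the closest annotated protein-coding start gave 17 peaks in place of 10, of which 6 were added at Mef2c and 1 at Myocd, because symbols of noncoding transcripts no longer took them, and only 1 of the 7 was single-copy. Asking for at least 2 peaks left 2 genes with a peak. Searching whole peaks in place of centres gave 29 pairs of peak and string in place of 13, because the windows are longer. With single-copy peaks alone, 7 genes kept a peak and 47 of the related genes had one in place of 59. No paired analysis was possible because the deposited list combines both replicates and no test was made, and for the same reason no replicate could be left out. Depth is unknown here, and enrichment just below the caller's limit in either replicate is not in such a list.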
